A study of Mus musculus with 8 samples.

Results

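Alpha1 genes of the voltage-gated calcium channel family were examined in maps of histone H3 methylated at lysine 9 in its mono- (H3K9me1), di- (H3K9me2) and trimethylated (H3K9me3) form. The genes were Cacna1a, Cacna1d, Cacna1g, Cacna1h and Cacna1i, 5 of 55413 annotated genes. They were taken by name from the alpha1 genes on chromosomes 8, 11, 14, 15 and 17. The study already named Cacna1i as an example of a promoter with H3K9me1. The alpha1 genes left out lie on chromosomes 1, 2, 6 and X and are described further below. Each annotated transcription start site (TSS) was scored 1 kb either side, each gene body was cut into 10 equal parts, and 50 kb were scored on each side of the gene. The maps came from ChIP-seq, in which antibodies pull down chromatin that carries a mark and the recovered DNA is sequenced. There were 8 samples, namely input and the 3 marks with 2 replicates each, all from wild-type mouse embryonic fibroblasts (MEFs). By the study's account these WT cells are a single-cell clone with a tamoxifen-inducible, not yet induced, deletion of Eset1 (also called Setdb1), an H3K9 methyltransferase gene, so all groups share this allele and a Cre transgene. The deposited data analysed here were 1 list of enriched regions per mark, on a grid of 750 bp bins, and the input had no list of its own. With no value per replicate there was no spread to test a difference against, so no p-value is given. How deeply each region was sequenced is not known. The lists hold positions and no expression, so fibroblast markers could not be checked in them.

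Voltage-gated calcium channels open when the membrane depolarises and let calcium into the cell. The alpha1 subunit forms the pore and senses the voltage, while beta, alpha2delta and gamma subunits modify its gating and transport to the membrane. Cacna1a encodes the pore of P/Q-type channels, which trigger transmitter release at synapses. Cacna1d encodes an L-type channel of pacemaker, sensory and endocrine cells, and Cacna1g, Cacna1h and Cacna1i encode the T-type channels that open at low voltage. These are mainly genes of excitable cells and not typical products of a fibroblast. H3K9me2 and H3K9me3 are marks of silent chromatin, whereas H3K9me1 also lies over genes that are transcribed.

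H3K9me1 lay over at least 1 start site of each of the 5 genes and over 62.7 to 91.9% of the body of 4 of them, with 56.0% in Cacna1d. A start site with H3K9me1 was common on these chromosomes. It was seen in 61.2% of their protein-coding genes with 3 or more start sites. H3K9me2 and H3K9me3 differed between the genes, which lie on chromosomes of unlike coverage. H3K9me2 covered 72.7% of Cacna1a and H3K9me3 64.9%, and no region of either mark met Cacna1g, its start sites or its 50 kb flanks. The 2 marks covered 33.9 and 37.7% of chromosome 8, with Cacna1a, against 6.24 and 8.88% of chromosome 11, with Cacna1g. On chromosome 11, 516 of 631 other coding genes of at least 20 kb had no H3K9me2, and 534 had no H3K9me3. At the main coding start chosen for each gene, the start base lay outside every H3K9me2 region, while a neighbouring coding start of Cacna1a lay inside one. The sole H3K9me3 region that spanned such a base was the 60.75 kb region at Cacna1a. Among 1444 coding starts with at least 100 CpG (CG dinucleotides) on the genes' chromosomes, 2.70% lay inside H3K9me2 and 6.09% inside H3K9me3. The lack of H3K9me2 at the 5 start bases was thus the common case.

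The sequences before the main coding starts are shown because each of these starts is rich in CpG, the dinucleotide at which DNA is methylated and which most of the genome has lost, and because the marks stop near several of them. For each gene the 200 bases before the outermost TSS at the main coding start are given from 5′ to 3′ on the gene's strand (RefSeq sequence of GRCm38), with every CG in capitals.
Cacna1a, chr8:84415164-84415363, plus strand: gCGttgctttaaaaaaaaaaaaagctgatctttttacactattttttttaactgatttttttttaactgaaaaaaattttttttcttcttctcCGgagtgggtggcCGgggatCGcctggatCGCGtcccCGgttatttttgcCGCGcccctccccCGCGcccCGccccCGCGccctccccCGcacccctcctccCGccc
Cacna1d, chr14:30353487-30353686, minus strand: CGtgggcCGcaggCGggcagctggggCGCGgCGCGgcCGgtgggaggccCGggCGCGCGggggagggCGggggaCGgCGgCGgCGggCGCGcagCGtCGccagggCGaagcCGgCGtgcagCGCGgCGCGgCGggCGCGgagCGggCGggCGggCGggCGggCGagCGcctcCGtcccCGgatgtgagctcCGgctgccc
Cacna1g, chr11:94474199-94474398, minus strand: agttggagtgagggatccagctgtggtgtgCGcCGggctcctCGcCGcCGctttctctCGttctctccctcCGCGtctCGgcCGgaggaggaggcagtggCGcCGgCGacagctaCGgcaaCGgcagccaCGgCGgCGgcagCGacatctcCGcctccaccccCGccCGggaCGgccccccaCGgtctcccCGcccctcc
Cacna1h, chr17:25433784-25433983, minus strand: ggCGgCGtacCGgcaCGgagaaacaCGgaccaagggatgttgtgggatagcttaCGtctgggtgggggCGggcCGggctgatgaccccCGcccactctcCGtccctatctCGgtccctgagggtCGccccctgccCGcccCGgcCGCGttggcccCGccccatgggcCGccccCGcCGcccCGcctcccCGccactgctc
Cacna1i, chr15:80287038-80287237, plus strand: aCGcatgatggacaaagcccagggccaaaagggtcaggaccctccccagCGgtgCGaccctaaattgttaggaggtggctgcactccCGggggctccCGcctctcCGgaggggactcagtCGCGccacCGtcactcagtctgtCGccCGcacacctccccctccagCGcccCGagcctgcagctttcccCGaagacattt
The Cacna1d sequence held 41 CG, Cacna1g 25, Cacna1h 22, Cacna1a 16 and Cacna1i 14. Among 21938 protein-coding genes, the 200 bases before the TSS held a median of 7 CG (quartiles 2 and 15), and 90.4% held at least 1. The motif is its own reverse complement, so both strands give the same count. The Cacna1a sequence differs from the others in its AT-rich distal part (GC 52.0%, against 65.5 to 87.5% in the other 4).

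The genes lie on chromosomes whose coverage differs, and this bears on every coverage value given above and below. Over 20 chromosomes (Y left out), H3K9me1 covered from 0.0284 to 56.5%, H3K9me2 from 0 to 59.0% and H3K9me3 from 0.244 to 58.8% of the bases. The chromosomes of the 5 genes were covered to 11.2 to 46.8%, 6.24 to 46.1% and 8.88 to 44.1%, all above the medians over chromosomes of 8.47, 2.30 and 5.30%. Genes of the same chromosome are therefore given as the background, and the part of the chromosome in a gene's coverage was not tested.

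Of the 38 annotated start sites of the 5 genes, 32 had an H3K9me1 region within 1 kb, 18 an H3K9me2 region and 12 an H3K9me3 region. Over the start sites of all annotated genes the shares were 18.8%, 7.62% and 7.83%. These shares include chromosomes almost free of regions, as 9, 9 and 5 of 20 chromosomes were covered to less than 1% by the respective mark. A share of sites over the 5 genes' chromosomes alone is not given. Many of the 38 sites lie close together and share sequence, since their windows merge into 23 separate stretches. By gene, H3K9me1 met 5 of 5, H3K9me2 4 of 5 and H3K9me3 4 of 5, against 21.4%, 11.5% and 12.0% of all annotated genes. Among the 5422 protein-coding genes of chromosomes 8, 11, 14, 15 and 17, the chromosomes of these genes, the shares were 51.8%, 20.3% and 18.0%. Every one of the 5 genes has 3 start sites or more, and protein-coding genes with at least that many sites on these chromosomes had H3K9me1 in 61.2%, H3K9me2 in 17.6% and H3K9me3 in 15.0% of cases. Cacna1a, Cacna1d, Cacna1h and Cacna1i had all 3 marks somewhere over their start sites, 4 of 5 genes against 9.96% of the protein-coding genes on these chromosomes. This share is over genes with any number of start sites. In Cacna1h and Cacna1i the 3 marks came from different sites, and no single site had them all. Genes with H3K9me3 came to 2 when 50% of a window had to be covered and to 1 with the gene's 5′ end only, and genes with H3K9me2 to 2 with the 5′ end only. The H3K9me2 and H3K9me3 calls at Cacna1h rest on 0.900 to 7.55% of a window. With 5 genes on 5 chromosomes, these counts describe the genes and are not a test of the family.

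Taken site by site, H3K9me1 alone lay over 13 sites, H3K9me1 with H3K9me2 over 9, all 3 marks over 7, H3K9me1 with H3K9me3 over 3 and H3K9me2 with H3K9me3 over 2. No site had H3K9me2 alone or H3K9me3 alone, and 4 sites had no mark. Those 4 were CpG-rich, with 128 to 166 CpG in the 2 kb window, and comprised the 3 sites at the 5′ end of Cacna1g and the site nearest the 3′ end of Cacna1a. The 32 sites with H3K9me1 held a median of 48.0 CpG (18.0 to 183), and the 6 sites without it a median of 128 (33.0 to 166). These windows overlap within genes, so the medians are a description over dependent sites.

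At Cacna1a (GENCODE ENSMUSG00000034656.17, GRCm38 chr8:84388440-84640246, plus strand, 252 kb), 10 of 11 start sites had H3K9me1, 10 had H3K9me2 and 5 had H3K9me3. The gene's 5′ end belongs to a transcript that is not protein-coding, and its window was covered to 100% by H3K9me1 and 90.5% by H3K9me2, with the nearest H3K9me3 region 2.31 kb away. The start sites of the 3 coding transcripts lie 26.9 and 27.3 kb inside the gene, and all had the 3 marks. The sites 159 and 183 kb inside the gene were covered over the whole window by all 3 marks. The 4 sites 213 to 214 kb inside had H3K9me1 over the whole window and H3K9me2 over 46.5 to 73.6%, without H3K9me3. The site 251 kb inside, with 166 CpG, had no region of H3K9me1 within 3.01 kb, of H3K9me2 within 12.0 kb or of H3K9me3 within 27.0 kb.

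At Cacna1d (ENSMUSG00000015968.17, chr14:30039939-30491455, minus strand, 452 kb), H3K9me1 met 8 of 10 start sites, H3K9me2 5 and H3K9me3 4, and the marks changed from the 5′ to the 3′ sites. The 5 sites of the 5′ end and of the main coding start, at 0 to 138 kb, had H3K9me1 as their sole mark, over 38.2 to 100% of the window. The sites 316 and 391 kb inside the gene had all 3 marks, and the site at 409 kb had H3K9me1 and H3K9me2 over 62.9% of its window each. The last pair of sites, 441 and 445 kb inside, were covered to 100% by H3K9me2 and by H3K9me3 and to 0% by H3K9me1. They were the only 2 of the 38 sites with H3K9me2 or H3K9me3 and no H3K9me1.

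Among the T-type genes, Cacna1g (ENSMUSG00000020866.17, chr11:94408391-94474198, minus strand, 65.8 kb) had H3K9me1 at 4 of 7 start sites and neither of the other marks. Its 3 sites at the 5′ end were unmarked, and all 11 coding transcripts begin at 2 of them. The 4 marked sites lie 47.7 to 62.5 kb inside the gene and start non-coding transcripts. Cacna1h (ENSMUSG00000024112.16, chr17:25374285-25433783, minus strand, 59.5 kb) had H3K9me1 at 7 of 7 sites, over the whole window in 6 of them. H3K9me2 met 2 of the Cacna1h sites and H3K9me3 met 1, with 0.900 to 1.65% and 7.55% of the window, so these regions reached only the outer bases of the window. Cacna1i (ENSMUSG00000022416.15, chr15:80287238-80398279, plus strand, 111 kb) had H3K9me1 over the whole window of 3 of 3 sites. Its pair of sites at the 5′ end also had H3K9me3, over 25.6 and 10.8% of the window. The internal site 102 kb downstream, where 3 shorter coding transcripts begin, had H3K9me2 over 78.9% and no H3K9me3.

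**Figure D1:**
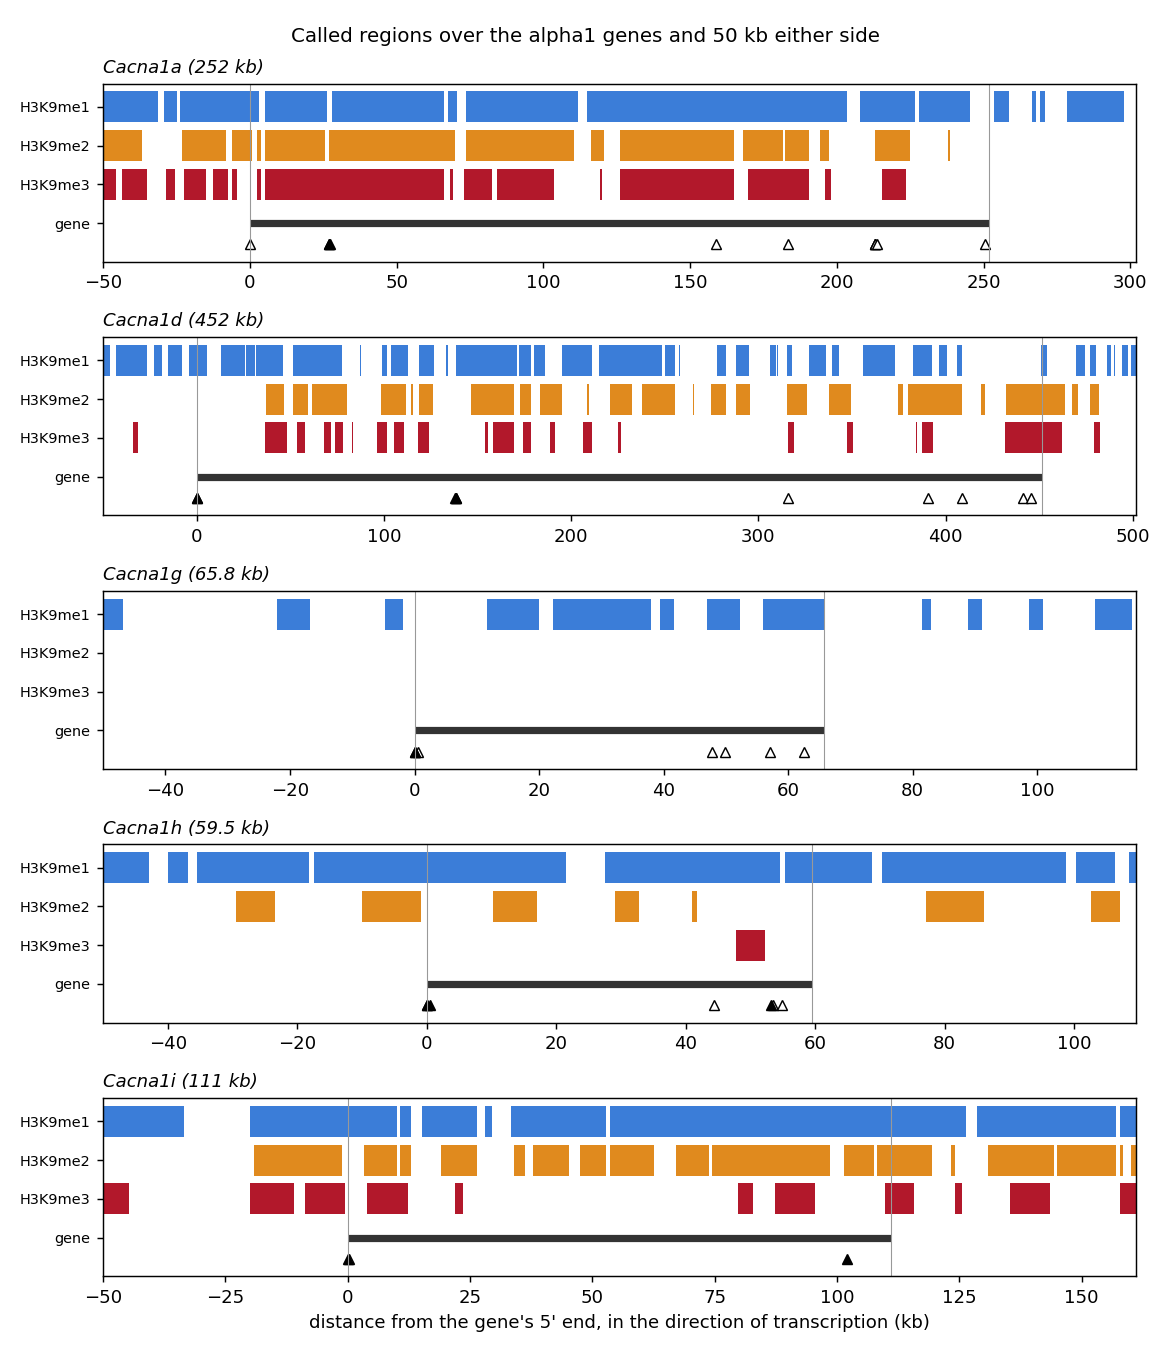
Regions of each mark (coloured bars) along the 5 genes and 50 kb either side, with the distance from the gene's 5′ end in kb on the x axis. The black bar is the gene, filled triangles are start sites of coding transcripts and open triangles are other start sites. H3K9me1 is seen along all 5 genes, H3K9me2 and H3K9me3 fill most of Cacna1a, and their rows are empty at Cacna1g.

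The main coding start of a gene was taken as the site with most coding transcripts among those longer than 50% of the gene's longest coding transcript. At Cacna1a the 3 coding start sites have 1 such transcript each, and the outermost, base 84415364, was taken. It lay in a gap of 1.5 kb in H3K9me1 (84414751 to 84416250) and in another gap of 1.5 kb in H3K9me2 (84414001 to 84415500), each the width of 2 bins. Wide regions bordered both gaps, as the H3K9me2 region that began 0.136 kb after the start was 42.75 kb wide, the widest of that mark in the gene. The H3K9me3 region from 84393751 to 84454500 ran through the start, from 21.6 kb before it to 39.1 kb after it. H3K9me1 filled 25.0% of the 2 kb window, H3K9me2 43.2% and H3K9me3 100%, and the window held 165 CpG. The choice among the tied sites matters for H3K9me2. The site at 84415377 lay in the same gaps, 0.124 kb from the H3K9me2 region, but the site at 84415784 lay inside H3K9me2, which filled 64.2% of its window, and 0.467 kb from H3K9me1.

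At Cacna1d, base 30352991 lay in an H3K9me1 region of 33.0 kb that began 0.259 kb before it and ran 32.7 kb into the gene. H3K9me2 left a gap of 20.25 kb around the start and H3K9me3 a gap of 30 kb. At Cacna1g, base 94474100 lay in an H3K9me1 gap of 13.5 kb, from 1.90 kb before it to 11.6 kb after it. The nearest H3K9me2 region was 669 kb away and the nearest H3K9me3 region 672 kb away, so the gene sat in gaps of 2886 and 4811.25 kb in these lists.

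At Cacna1h, base 25433783 lay inside an H3K9me1 region of 39.0 kb that reached 17.5 kb before it and 21.5 kb after it. An H3K9me2 region stopped 0.967 kb before the start, and the next began 10.3 kb after it. H3K9me3 was 47.8 kb away on the nearer side. At Cacna1i, base 80287238 lay inside an H3K9me1 region of 30 kb. H3K9me2 stopped 1.24 kb before this start and resumed 3.26 kb after it, and H3K9me3 stopped 0.487 kb before it and resumed 4.01 kb after it, each leaving a gap of 4.5 kb. At both genes the H3K9me1 window was covered to 100%, with 182 and 149 CpG in it.

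So the start base lay inside H3K9me1 in Cacna1d, Cacna1h and Cacna1i, 3 of 5 genes. In Cacna1d the region's edge was 0.259 kb from the base, less than 1 bin of 750 bp. The neighbouring coding start at 30353009 lay inside the region, and the start at 30353486, without a coding transcript, lay 0.236 kb outside it. All 5 windows held over 100 CpG (129 to 182). Among 1444 coding starts with at least 100 CpG on the same chromosomes, defined in the same way, the start base was covered by H3K9me1 in 2.84%, by H3K9me2 in 2.70% and by H3K9me3 in 6.09%. A start base outside H3K9me2, as in all 5 genes, was thus the common case. Among 3959 starts with fewer CpG, the shares were 24.2, 16.3 and 14.0%. The limit of 100 CpG was chosen after the values of the 5 genes were seen, so this contrast is a description.

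**Figure D2:**
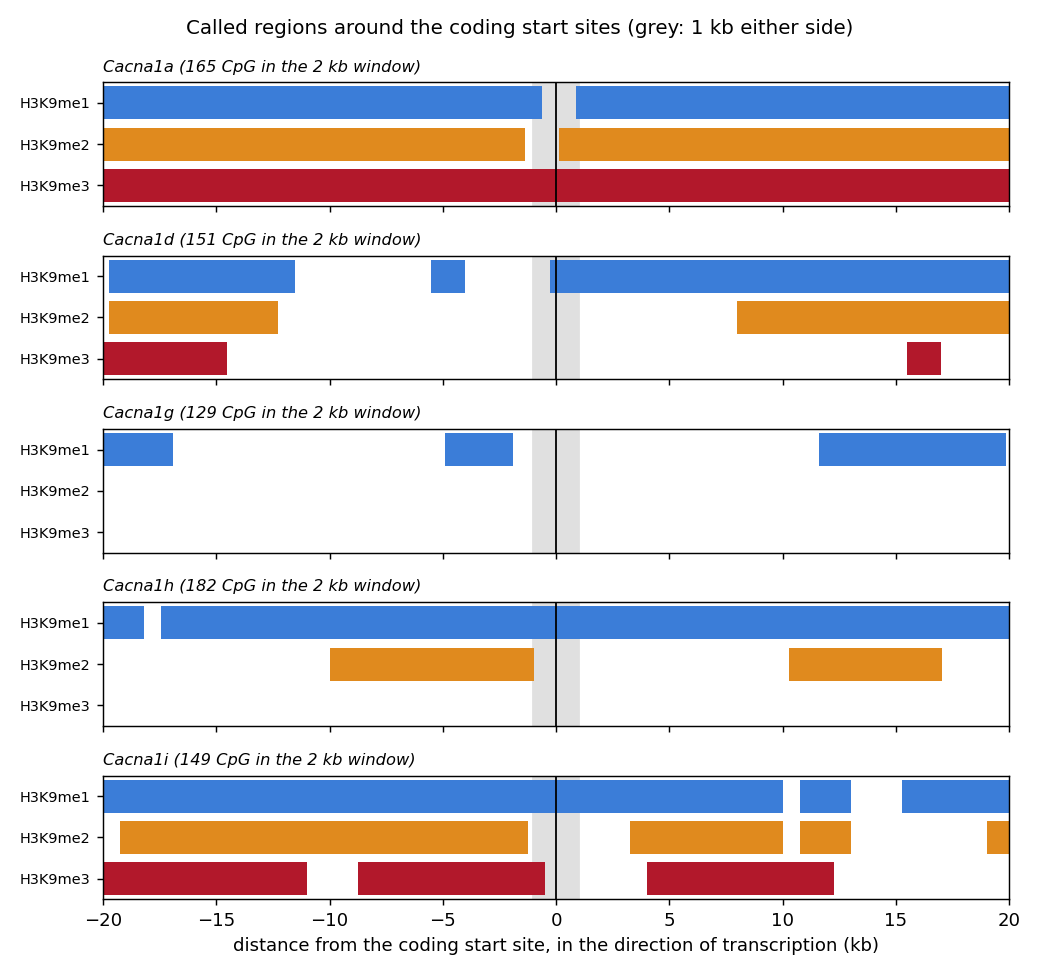
Regions of each mark within 20 kb of the main coding start of each gene, oriented in the direction of transcription, with the distance in kb on the x axis and the 2 kb window in grey. The start is covered by H3K9me1 at Cacna1d, Cacna1h and Cacna1i, and by H3K9me3 at Cacna1a, and the H3K9me2 rows are open at the black line in all 5 panels. On the same chromosomes, H3K9me2 covered 2.70% of 1444 coding starts with at least 100 CpG.

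Over the gene bodies together (940 kb), H3K9me1 covered 72.0%, H3K9me2 53.0% and H3K9me3 31.0%. The H3K9me3 value depended on Cacna1a, as it was 18.6% without this gene. In the 50 kb flanks together the shares were 65.2, 27.4 and 17.3%.

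Cacna1a had the highest share of H3K9me2 and H3K9me3. H3K9me1 covered 228 kb of its body (90.6%) in 8 regions, of which the widest, 88.5 kb, lay from 84503251 to 84591750. H3K9me2 covered 183 kb (72.7%) and H3K9me3 164 kb (64.9%). Among coding genes of at least 20 kb on chromosome 8 the medians were 72.2% for H3K9me1, 3.78% for H3K9me2 and 3.92% for H3K9me3, and Cacna1a ranked 107, 77 and 72 from the highest of 482.

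Cacna1d is the longest of the 5 genes and was covered in many pieces, namely 29 regions of H3K9me1, 21 of H3K9me2 and 19 of H3K9me3. They covered 253 kb (56.0%), 223 kb (49.5%) and 101 kb (22.4%). On chromosome 14 the medians of the other coding genes of at least 20 kb were 19.5%, 0% and 0%. Cacna1d ranked 29 of 396 for H3K9me2, 46 for H3K9me3 and 72 for H3K9me1, and 268 of the 395 other genes had no H3K9me2 at all.

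Cacna1g had 41.2 kb (62.7%) of H3K9me1 in 5 regions, rank 95 of 632 on chromosome 11, where the median was 16.4%. Having no H3K9me2 was common there, since 516 of 631 other genes had none, and 534 had no H3K9me3. Cacna1h had 52.7 kb (88.7%) of H3K9me1, rank 52 of 411 on chromosome 17 (median 45.0%). Its H3K9me2 came to 11.2 kb (18.9%, rank 94) and its H3K9me3 to a single region of 4.50 kb (7.56%, rank 131), while the medians of both were 0%.

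Cacna1i had 102 kb (91.9%) of H3K9me1, including a region of 72.75 kb that covered the 3′ part of the gene and ended beyond it. On chromosome 15, the most covered of the 5 chromosomes, this was rank 96 of 372 with a median of 82.9%. H3K9me2 covered 80.0 kb (72.1%, rank 92, median 14.9%) and H3K9me3 22.3 kb (20.1%, rank 137, median 7.74%).

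**Figure D3:**
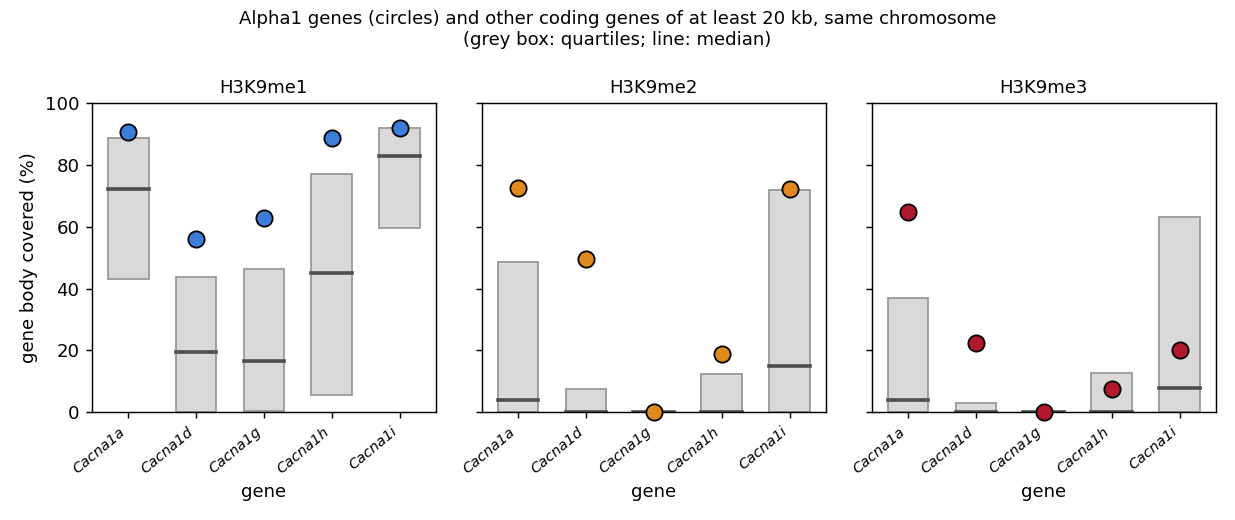
Share of the gene body covered by each mark (y axis, %) for the 5 genes (circles), beside the quartiles (box) and median (line) of the other coding genes of at least 20 kb on the same chromosome. All 5 circles lie above the median in H3K9me1, and in H3K9me2 and H3K9me3 the Cacna1g circle lies at 0 with its median.

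The marks overlapped to a different extent in each gene. In Cacna1a, 62.8% of the bases had all 3 marks, 18.2% had H3K9me1 alone and 7.64% had none. H3K9me3 was nearly always joined by the other marks there, as 97.7% of its bases also had H3K9me2 and 98.2% also had H3K9me1. In Cacna1i the main combination was H3K9me1 with H3K9me2 (52.7%), followed by H3K9me1 alone (19.8%) and all 3 marks (19.4%), and 96.6% of the H3K9me3 bases had H3K9me2.

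Cacna1d was the most mixed of the 5. No mark covered 25.9% of it, H3K9me1 alone 22.1%, H3K9me1 with H3K9me2 19.1%, all 3 marks 13.7%, H3K9me2 alone 10.5% and H3K9me2 with H3K9me3 6.15%. Of its H3K9me2 bases 66.4% also had H3K9me1, whereas this share was 98.4% in Cacna1a and 100% in Cacna1h and Cacna1i. In Cacna1h, H3K9me2 (18.9%) and H3K9me3 (7.56%) each lay inside H3K9me1 and shared no base with each other. In Cacna1g, H3K9me1 alone covered 62.7% and the remaining 37.3% was free of any mark, including the 11.7 kb at the 5′ end.

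**Figure D4:**
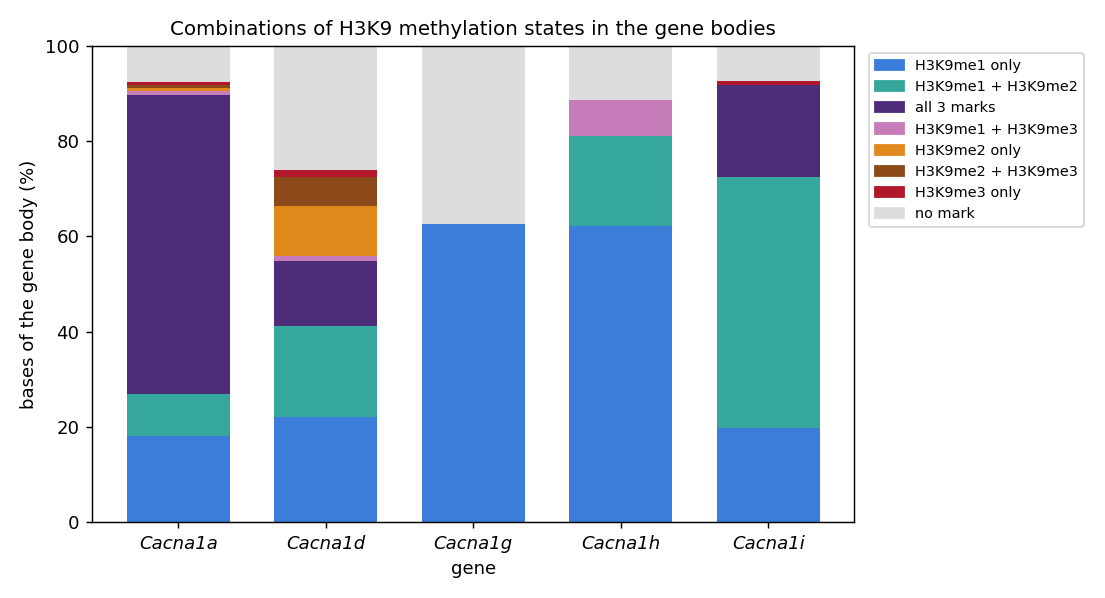
Share of the bases of each gene body (y axis, %) with each combination of marks, stacked to 100%. All 3 marks together make up 62.8% of Cacna1a and 0% of Cacna1g and Cacna1h, and H3K9me2 without H3K9me1 is mostly seen in Cacna1d.

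Coverage also changed along the genes, read in 10 equal parts from the 5′ to the 3′ end. Cacna1a was covered to 68.5% or more by H3K9me1 in every part. In its last part H3K9me2 fell to 2.98% and H3K9me3 to 0%, from 47.7 and 32.8% in part 9, and both were at 0% in the 50 kb after the gene. In the 50 kb before the gene they stood at 68.5 and 59.6%. H3K9me3 had a gap in the middle of Cacna1a, with 14.3% in part 5 between 94.0 and 99.4% in the parts beside it.

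In Cacna1d, H3K9me1 covered 80.1% of the first part and 6.98% of the last. H3K9me2 went from 18.2 to 53.5% and H3K9me3 from 19.8 to 44.4% over the same parts, with H3K9me3 down to 0.237% in part 7. Before the gene H3K9me2 stood at 0% and H3K9me1 at 73.0%, and after it they stood at 39.4 and 37.0%. In the last part and the flank after the gene, H3K9me2 and H3K9me3 were thus nearly or fully absent at Cacna1a and present at Cacna1d. Over the whole length, H3K9me3 was denser in the 5′ than in the 3′ parts of both genes, with means of 73.9% over the first 5 parts and 56.0% over the last 5 in Cacna1a, and 29.8 and 15.0% in Cacna1d. H3K9me2 had means of 84.6 and 60.8% in Cacna1a and 47.1 and 51.8% in Cacna1d.

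In Cacna1g, H3K9me1 stood at 0% in the first part and 22.2% in part 2, reached 100% in parts 3 and 5, and stood at 98.3% in the last. Its flanks had 22.9% before and 24.0% after the gene. In Cacna1h, 7 of 10 parts were full of H3K9me1 and the lowest, part 5, had 37.3%. H3K9me2 peaked in part 3 with 86.3%, and H3K9me3 lay in part 9 only, with 75.6%. In Cacna1i, H3K9me1 filled parts 6 to 10, and H3K9me2 rose from a mean of 60.4% over the first 5 parts to 83.8% over the last 5. H3K9me3 stood at 63.9% in part 1, at 0% in parts 4 to 7 and at 60.2% in part 9.

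**Figure D5:**
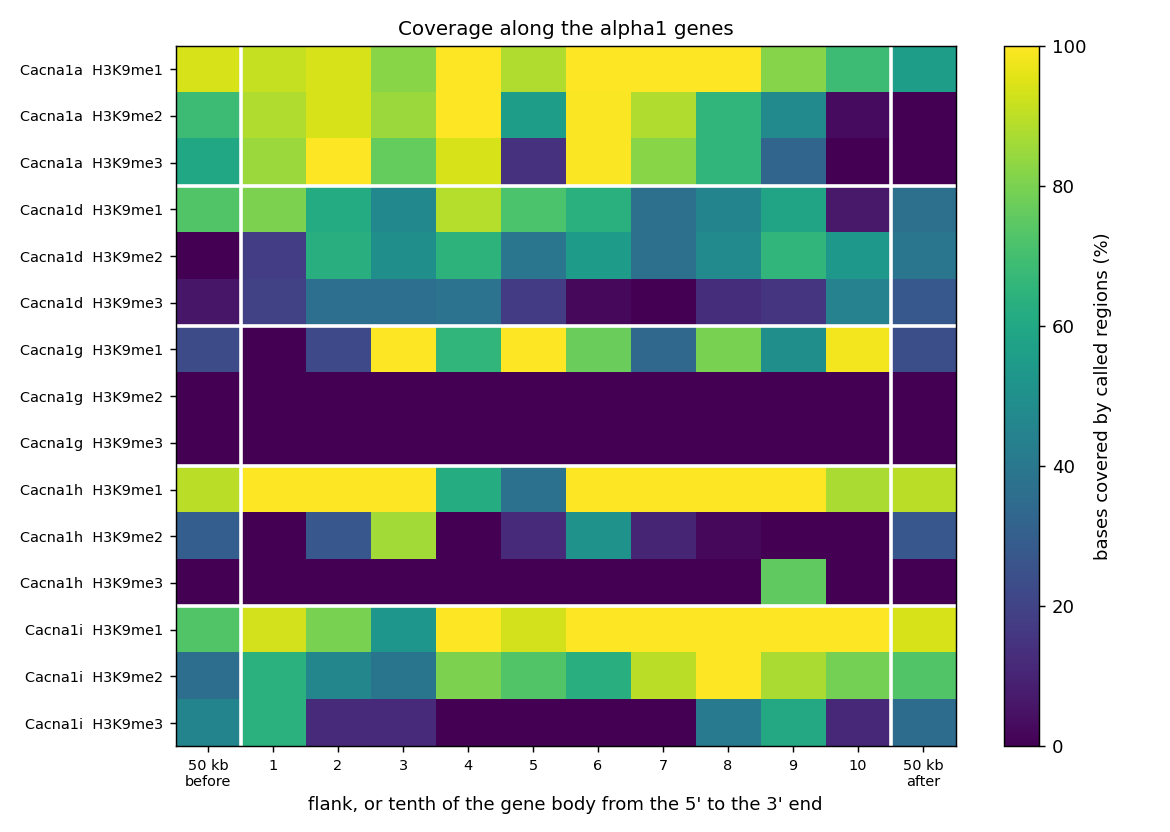
Share of bases covered (colour, 0 to 100%) in the 50 kb before each gene, in the 10 parts of its body from the 5′ to the 3′ end and in the 50 kb after it, with 1 row per gene and mark. The H3K9me2 and H3K9me3 rows of Cacna1a darken toward the 3′ end (2.98 and 0% in the last part), and the H3K9me1 row of Cacna1d is darkest in its last part (6.98%).

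Coding exons, 6.68 to 7.16 kb per gene, were compared with the rest of each gene, which is mostly intron. H3K9me1 covered more of the coding exons than of the rest in Cacna1g (79.8 against 60.9%), Cacna1h (98.9 against 87.0%) and Cacna1i (98.3 against 91.2%). It covered less of them in Cacna1a (79.6 against 91.2%) and Cacna1d (39.0 against 56.4%). H3K9me2 covered more of the coding exons in Cacna1d (59.2 against 49.1%) and Cacna1i (87.1 against 70.7%) and less in Cacna1a (61.6 against 73.2%) and Cacna1h (8.61 against 20.8%). H3K9me3 covered more of them in Cacna1d (34.3 against 21.8%), Cacna1h (21.3 against 5.84%) and Cacna1i (26.3 against 19.0%) and less in Cacna1a (54.7 against 65.3%). Exons are short beside the 750 bp bins, so a region over an exon also covers intron.

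The GC content of covered and uncovered sequence differed little in most of the genes. In Cacna1a, GC was 48.9% under H3K9me1 and 52.5% outside it. In Cacna1h the single H3K9me3 region had 60.8% GC and 2.36% repeat-masked bases, against 55.3 and 8.92% in the rest of the gene. In Cacna1i, the sequence outside H3K9me1 was repeat-masked to 32.1%, and that under it to 14.4%. The masked share was also higher outside H3K9me1 in Cacna1g (20.5 against 13.2%) and Cacna1h (14.9 against 7.59%). It differed less in Cacna1d (23.3 against 21.9%) and went the other way in Cacna1a (26.2 against 27.5%). Whether reads from repeats could be placed at the unmarked stretches was not tested.

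The flanks hold other protein-coding genes, which were scored in the same way. After Cacna1a, where H3K9me2 and H3K9me3 were absent, lie Ier2, an immediate early gene, and Nacc1, a transcriptional regulator, both without a marked start site. The body of Nacc1 was nevertheless covered to 90.7% by H3K9me1, whereas that of Ier2 had no mark. Trmt1, a tRNA methyltransferase gene further on, had H3K9me1. Cacna1d overlaps 2 genes of the opposite strand, Dcp1a at its 5′ end (mRNA decapping, H3K9me1 and H3K9me3 over start sites) and Chdh at its 3′ end (choline dehydrogenase, all 3 marks). The body of Chdh was covered to 64.4% by H3K9me2 and 45.2% by H3K9me3. Regions in the shared sequence cannot be assigned to either gene. Beyond Chdh, Il17rb, an interleukin receptor gene, had all 3 marks over start sites and no H3K9me2 or H3K9me3 within its body, and Actr8 had H3K9me1.

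Around Cacna1g, Spata20 and Epn3 upstream had no marked start site, and Mycbpap and the transporter gene Abcc3 had H3K9me1 over a start site. The bodies were ordered otherwise, with H3K9me1 over 50.6% of Epn3, 24.1% of Abcc3, 3.64% of Mycbpap and 1.33% of Spata20. Cacna1h overlaps the mast cell tryptase gene Tpsg1 at its 3′ end, on the opposite strand, and lies beside the tryptase genes Tpsb2 and Tpsab1. The bodies of these 3 genes were covered to 100% by H3K9me1 and 0% by the other marks, and H3K9me1 in the sequence shared with Tpsg1 cannot be assigned to either gene. Tekt4 on its upstream side also had H3K9me1 over a start site. Upstream of Cacna1i, Rps19bp1 and Atf4, a transcription factor gene of the stress response, had no mark over the start or in the body, and Mief1 had H3K9me1. The unmarked genes Rps19bp1 and Atf4 were thus 22.9 and 29.7 kb from a gene covered to 91.9% by H3K9me1. Inside Cacna1a lies the antisense gene Gm16183 with H3K9me1 at its start. Inside Cacna1d lie 5 processed pseudogenes, of which 2 had all 3 marks, 1 had H3K9me1 and H3K9me2, and 2 had none.

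The rest of the channel's subunit genes were scored with the same rule. Of the other 5 alpha1 genes, 3 had H3K9me1 over a start site, 2 had H3K9me2 and 1 had H3K9me3. Cacna1b, the N-type gene on chromosome 2, had H3K9me1 at 4 of 8 sites and in 46.5% of its body, with 8.48% H3K9me2. Cacna1e, the R-type gene on chromosome 1, had H3K9me1 at 2 of 8 sites and H3K9me2 and H3K9me3 at 4 each, and its body had more H3K9me2 (32.8%) and H3K9me3 (26.7%) than H3K9me1 (6.18%). Cacna1s, the skeletal muscle gene also on chromosome 1, had H3K9me1 and H3K9me2 at 1 of 6 sites, with 39.2% and 32.4% of the body.

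Cacna1c, the L-type gene of heart and smooth muscle, had no region at 14 start sites or in its 609 kb body, and Cacna1f, the L-type gene of the retina, had none at 10 sites. They lie on chromosomes 6 and X, of which H3K9me1 covered 0.130 and 0.0959%. On chromosome 6, 527 of 539 other coding genes of at least 20 kb had no H3K9me1, so the lack of a region at Cacna1c cannot be told apart from the lack of regions on its chromosome. The lack of H3K9me2 and H3K9me3 at Cacna1g was likewise shared by most genes of its chromosome, as given above.

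Of the 16 beta, alpha2delta and gamma genes, H3K9me1 met the start sites of 2, H3K9me2 those of 3 and H3K9me3 those of 3, and 10 had no mark there. Cacnb3 had H3K9me1 at 3 of 7 sites, and Cacna2d2 at 7 of 7 sites with 97.1% of its body. Cacnb2 had H3K9me3 at 10 of 16 sites and in 3.51% of its 385 kb body. Cacna2d3, on chromosome 14 like Cacna1d, had H3K9me2 at 2 and H3K9me3 at 3 of 8 sites, and its body was covered to 42.9% by H3K9me3 and 0% by H3K9me1. Cacng2, a gamma gene whose product carries AMPA receptors to the synapse, lies on chromosome 15 like Cacna1i. It was covered to 98.8, 98.2 and 98.2% by the 3 marks, with H3K9me2 and H3K9me3 but no H3K9me1 at its single start site. Cacng5 had H3K9me2 at 1 of 2 sites. H3K9me1 over start sites was counted in 5 of 5 of the alpha1 genes described here and in 5 of 21 other subunit genes, beside 21.4% of all annotated genes and 61.2% of coding genes with 3 or more start sites on the 5 genes' chromosomes. The 2 counts are not on equal terms. The 5 genes were taken from named chromosomes, and the study had already named Cacna1i as an example of H3K9me1. The 5 genes have 3 to 11 start sites and the gamma genes 1 to 3, so the latter have fewer windows that a region can meet, and some of the other genes lie on chromosomes almost free of regions. Of the 9 beta, alpha2delta and gamma genes on chromosomes covered to at least 5% by every mark (5, 9, 11, 14 and 15), 2 had it, with the limit of 5% chosen after coverage was known.

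Profiles of 30 values (10 parts of the body by 3 marks) were compared by the mean absolute difference in percentage points. Between the 5 genes it ranged from 22.7 points for Cacna1g and Cacna1h to 59.1 points for Cacna1a and Cacna1g. The 3 T-type genes did not form the closest group, as Cacna1i was 32.1 points from Cacna1h, 44.1 from Cacna1g and 30 from Cacna1d. Over 10156 to 10158 other coding genes of at least 20 kb, Ostm1 was closest to Cacna1a (12.8 points, median over all 75.4), followed by Mlc1 (14.1). Closest to Cacna1g were Tcaim (3.62) and Elp3 (3.95), whose bodies were covered to 70.1 and 70.7% by H3K9me1 and 0% by the other marks. Closest to Cacna1h were Rsph10b (9.53) and Cbs (10.8), and closest to Cacna1i were Neurl1b (15.8) and Ttll8 (17.9). For Cacna1d the closest were Gm20388 (19.6), an annotated gene of 4435 kb, and Cpq (19.7), against a median of 42.6 points. In raw points, no gene came as near to its mixed profile as those named for Cacna1a, Cacna1g, Cacna1h and Cacna1i did to theirs. The points are not on the same scale for each gene, since the median over all was 20.9 for Cacna1g and 75.4 for Cacna1a. They therefore do not rank the 5 genes by how well they are matched. Likeness here is that of region positions only.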

How the data were processed

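ChIP-seq of H3K9me1, H3K9me2, H3K9me3 and input was made in WT MEFs, with 2 replicates each. The authors aligned reads to mm10 (GRCm38) with BWA 0.7.1, as the submitters' processing notes also name it, and called regions with histoneHMM. How replicates and input entered the call, and its threshold, are not given in the sources used here. The deposited lists held chromosome, start and end (42704, 29119 and 27108 regions), on 750 bp bins without exception. Each total is slightly lower than the number of regions the study reported for that mark, for a reason not known. Positions were read as 1-based and inclusive. Bin width limits every edge, and depth per sample is unknown from the lists.

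Start sites, exons and genes came from GENCODE M21 and sequence from RefSeq GRCm38. A site counted as marked with at least 1 bp of a region within 1 kb. Shares of covered bases were computed in Python 3.11.15 with NumPy 2.4.6, and figures with Matplotlib 3.10.9. The computation was tested on simulated data, with 0 mismatches in 4000 windows. Intervals used to label alternatives were 95% Wilson intervals over bins. They treat neighbouring bins as independent, although 1 region can span many bins, so they are too narrow. With 1 list per mark they measure no spread between samples and serve as labels only.

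The members and lists were chosen with earlier results of these data known. Genes named were the 5 members, the other alpha1 genes, subunit genes with a mark at a start site, coding genes within 50 kb and the 2 genes with the nearest profile per member. Alternatives covered region width, joined regions, window, overlap, transcripts, coordinate reading, flank length and pooling.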

Additional observations from a re-analysis of the deposited data

How the results depend on the processing

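H3K9me1 was at least as frequent as H3K9me2, and H3K9me2 as H3K9me3, in every alternative run for the pooled start sites, genes, bodies and flanks. Of 102 alternative values for these summaries, 70 stayed within 1.5 times a count or within the 95% interval of a share. This split was partly fixed by the rule and does not measure robustness. Raw counts were compared even where the number of start sites fell from 38 to 13 or 5. H3K9me1 at 11 of 13 sites was thus labelled as moved from 32 of 38. Reading the coordinates the other way shifted starts by only 1 bp, and all of those values stayed. With protein-coding transcripts only, 11 of 13 start sites had H3K9me1, 5 had H3K9me2 and 5 had H3K9me3. With the gene's 5′ end only, 4 of 5 sites had H3K9me1, 2 had H3K9me2 and 1 had H3K9me3, in as many genes. Requiring 50% of the window left 11 sites with H3K9me2 and 2 genes with H3K9me3. For H3K9me1, H3K9me2 and H3K9me3 in that order, the pooled body shares came to 68.1, 50.1 and 25.7% once regions under 5 kb were dropped, to 78.8, 58.8 and 35.5% with regions up to 5 kb apart joined, and to 78.0, 42.6 and 23.0% as the unweighted mean of the 5 genes. Without Cacna1a they were 65.2, 45.7 and 18.6%, and without Cacna1d 86.9, 56.2 and 39.0%. H3K9me1 came to 69.4% without Cacna1i and H3K9me2 to 56.9% without Cacna1g. H3K9me1 in the flanks was 55.7% once regions under 5 kb were dropped, 73.5% with joined regions and 60.5% over 100 kb. Over 20 kb, H3K9me2 in the flanks was 36.0% and H3K9me3 23.0%. Of 60 alternative values for single gene bodies 46 stayed within their interval, and these include the values with starts shifted by 1 bp. The single H3K9me3 region of Cacna1h was lost when regions under 5 kb were left out.

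No paired analysis was possible because each mark came as 1 list without replicate values, and for the same reason replicates could not be left out in turn. The maps are single and unscored, so weak and strong enrichment cannot be told apart.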
